A study of Petromyzon marinus with 12 samples.

Results

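KMT1 knockout embryos of the sea lamprey (Petromyzon marinus) were compared with wildtype embryos at day 2 of development by RNA sequencing. The comparison used 4 of the 12 libraries of the series, picked by their titles: 2 libraries of day 2 KMT1 knockout embryos, set against 2 libraries of day 2 wildtype embryos. Knockout embryos had been injected with Cas9 protein in complex with guide RNAs and a fluorescent dextran, and were picked by fluorescence 24 hours after fertilization. All embryos developed at 18 °C, and each library was made from a pool of about 100 frozen whole embryos. The labels do not say whether wildtype embryos were injected, so injection and loss of the target cannot be told apart. They also give neither the guides nor the share of edited alleles, and embryos injected with Cas9 are commonly mosaics of edited and unedited cells. Day 2 KMT5A knockout embryos were made in the same way. They and the KMT1 knockout and wildtype libraries of day 3 are given only for comparison with the day 2 KMT1 libraries.

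Enzymes of the KMT1 (SUV39H) family methylate lysine 9 of histone H3. HP1 proteins bind this mark, and together they keep repeats and other silent chromatin compact. Early embryos live on RNA and ribosomes laid down in the egg until their own genes take over. Lampreys also discard part of their genome from somatic cells during early development, a process in which silent chromatin is of interest.

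Total counts were 81631294 and 83075948 in the knockout libraries, against 80793818 and 89061394 in wildtype. Over 11976 genes with at least 100 counts in each library, the median absolute log2 ratio was 0.092 between the knockout replicates and 0.099 between the wildtype replicates. Between the group means it was 0.187. Counting noise alone would give a mean chi-square near 1 per gene between replicates; it was 25.9 in knockout and 32.4 in wildtype, so no library was a copy of its partner. They were separate pools, per the labels, and p-values measure the spread between pools. Levels are given as CPM (counts relative to the scaled library total), with no correction for gene length. Genes are named by the annotation's match to proteins of human or, less often, other species. In this table an exact 0 can be a failed estimate, so the results rest mainly on genes above 0 in all 4 libraries.

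The only gene named SUV39H2, taken here as the KMT1 gene, was not lower in the knockout libraries. It had 145 and 151 CPM in knockout, against 120 and 119 CPM in wildtype. This difference did not pass the test (log2 fold change 0.31, SE 0.087, edgeR adjusted p 0.0677). That SUV39H2 was the injected target is taken from the name alone, and Cas9 edits need not lower a transcript. Markers of differentiated muscle, blood and liver were at or near 0: MYH1, TNNT3 and CKM (muscle), PTPRC (blood) and FGA (liver) were at 0 in all 4 libraries. MYOD1, a factor that sets muscle fate and the only other muscle marker found, had 18.3 and 15.2 CPM in knockout, against 17.45 and 17.2 CPM in wildtype. Summed maternal oocyte markers ranged from 1975 to 1992 CPM in knockout, against 2147 to 2234 CPM in wildtype. Summed epidermal markers ranged from 634 to 650 CPM in knockout, against 680 to 682 CPM in wildtype, and neural markers from 206 to 224 CPM in knockout, against 155 to 163 CPM in wildtype. In the epidermal list 1 of 3 models of TP63 was lower (PM14084, log2 fold change -0.66), a call lost with each of the 4 libraries left out; the summed TP63 level was 276 and 265 CPM in knockout, against 295.5 and 296 CPM in wildtype. In the neural list NEUROD1 was higher (log2 fold change 0.43). Most of the neural sum was NEUROD1, with 162.5 and 179.5 CPM in knockout, against 125 and 132 CPM in wildtype. In summed CPM alone, SYT1 also lay higher (31.25 and 31.6 CPM, against 17.95 and 18.2 CPM). ELAVL4 overlapped, and SNAP25 lay lower (1.12 and 1.35 CPM, against 1.53 and 1.80 CPM). NEUROD1 gave the only call in the neural list, with 1 model higher and 0 lower of 6 tested. Summed early embryo markers, of which 3 of 11 were found, ranged from 607 to 623 CPM in knockout, against 572 to 588 CPM in wildtype. Most of this sum was SOX2, with 588.5 and 606 CPM in knockout, against 566 and 548 CPM in wildtype. CCNB3 went the other way (13.4 and 11.5 CPM, against 16.6 and 18.7 CPM), and LIN28B overlapped. Of the 4 models tested in this list, 0 were called higher and 1 lower, where 3.18% of all genes were higher and 6.79% lower. Mesendoderm sums overlapped. The part of such cell types in the results was not tested. In pools of whole embryos, fewer cells of a type and less RNA per cell cannot be told apart.

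Small decreases outnumbered increases in the fit of all 12 libraries, and genes for making ribosomes, splicing RNA and translating it were among those that fell. Of 15615 genes tested, 1557 passed an edgeR adjusted p of 0.05 (9.97%), 496 higher (3.18%) and 1061 lower (6.79%) in the KMT1 knockout. Among the 13994 genes above 0 in all 4 libraries, 1514 passed (10.8%), of which 455 were higher (3.25%) and 1059 lower (7.57%). The median log2 fold change was 0.57 over all higher calls above 0 and -0.44 over all lower ones. Only 38 of the higher and 59 of the lower genes above 0 changed by 1 or more on the log2 scale. The balance of directions depended on the libraries fitted: 31.9% of the calls were higher in the fit of all 12 libraries, 55.7% of 2522 when the 4 libraries were fitted alone, and 39.3% of 354 when only library totals were used for scaling.

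**Figure D1:**
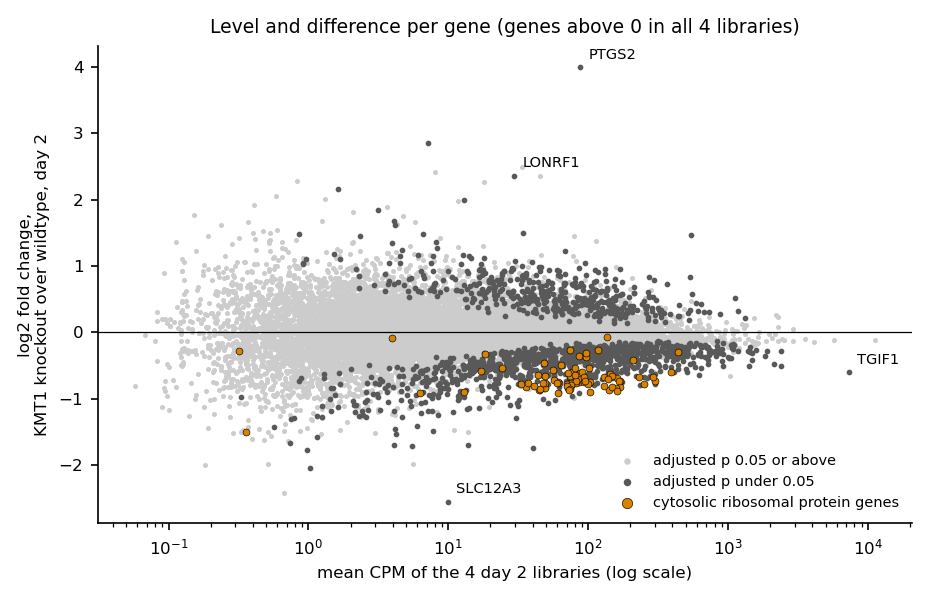
Log2 fold change of the day 2 KMT1 knockout over wildtype (vertical axis) against the mean CPM of the 4 libraries (horizontal axis, log scale), 1 point per gene above 0 in all 4 libraries. Cytosolic ribosomal protein genes (orange) all lie below 0, most of them between -0.5 and -1, while PTGS2 lies at 3.99 and SLC12A3 at -2.55.

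Genes for the proteins of the cytosolic ribosome fell together. Of 96 gene models with such names, 87 were tested and 78 were lower in the KMT1 knockout, with 0 higher, against 6.79% lower among all genes tested. The 84 members above 0 in all 4 libraries had fold changes below 0 without exception, from -1.50 to -0.07 on the log2 scale, with a median of -0.73 where the median of all genes was -0.04. The summed level of the list was 6519 and 6407 CPM in knockout, against 10299 and 10035 CPM in wildtype, and thus 36.4% lower. RPL10, a protein of the large subunit, had 70.6 and 72.4 CPM in knockout, against 137 and 130 CPM in wildtype (log2 fold change -0.90, SE 0.063, edgeR adjusted p 0.000302). RPL28 had 42.0 and 42.1 CPM in knockout, against 79.9 and 78.7 CPM in wildtype. RPS3, a protein of the small subunit that also takes part in DNA repair, had 318 and 302 CPM in knockout, against 475 and 465 CPM in wildtype (log2 fold change -0.60). In all 3 genes both knockout libraries lay below both wildtype libraries.

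Tested members that did not pass included 3 models of RPL37A, RPS15, RPS25, RPS27, RPS29 and FAU. RPS25 had 130 and 137 CPM in knockout, against 143 and 137 CPM in wildtype, so its groups overlapped. RPS29 had 15.4 and 17.3 CPM in knockout, against 20.4 and 20.6 CPM in wildtype (adjusted p 0.0545). Ribosomal protein genes are often present as near-identical copies, between which counting can split reads; the single models are less certain than the list. Under every alternative scaling, filter, tool or left-out library the number of lower members stayed between 69 and 80. Day 2 KMT5A knockout libraries, which were set against the same wildtype libraries, had summed levels of 6586 and 6468 CPM.

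**Figure D2:**
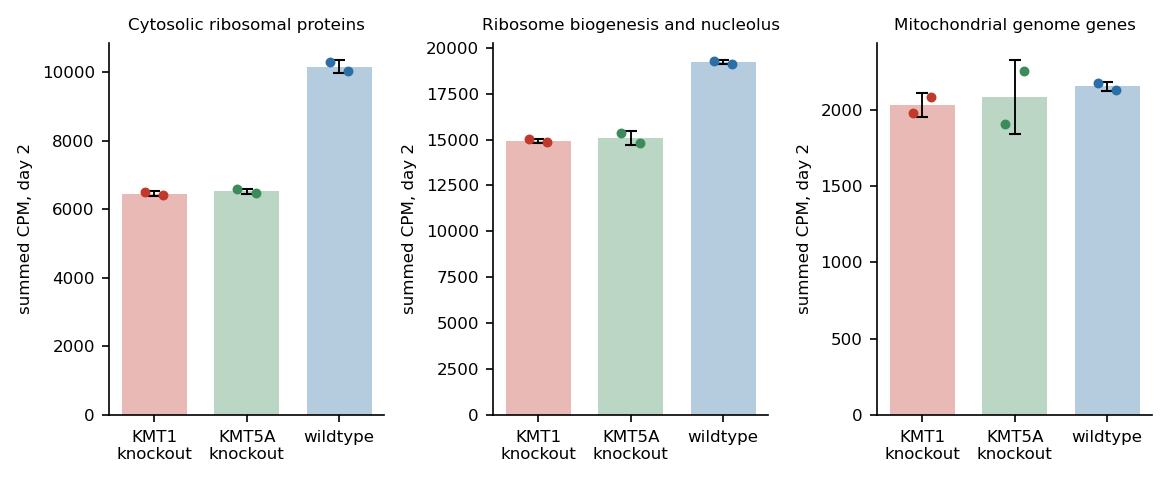
Summed CPM of 3 gene lists in each day 2 library (points), with the mean (bar) and SD (error bar, n = 2) for KMT1 knockout, KMT5A knockout and wildtype. Cytosolic ribosomal protein genes and ribosome biogenesis genes are lower in both knockouts than in wildtype, and the 2 libraries of each group lie close together. For the genes of the mitochondrial genome, the KMT5A knockout libraries (1910 and 2254) lie below and above both wildtype libraries.

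Ribosome assembly and the nucleolus, where ribosomal RNA is made and processed, moved the same way. Of 97 tested genes, 62 were lower (63.9%, against 6.79% of all genes) and 0 higher (against 3.18%). The median log2 fold change was -0.31. The summed level was 15017 and 14839 CPM in knockout, against 19285 and 19129 CPM in wildtype, 22.3% lower. DDX54, an RNA helicase of the nucleolus, had 40.4 and 36.4 CPM in knockout, against 79.9 and 75.8 CPM in wildtype (log2 fold change -1.02, SE 0.06, edgeR adjusted p 0.000219). RIOK2, a kinase of small subunit maturation, had 47.4 and 42.0 CPM in knockout, against 79.4 and 79.2 CPM in wildtype (log2 fold change -0.83). NCL, the nucleolar protein nucleolin, had 2003 and 1936 CPM in knockout, against 2829 and 2771 CPM in wildtype (log2 fold change -0.51). FBL, the methyltransferase of ribosomal RNA, had 497 and 483 CPM in knockout, against 627 and 644 CPM in wildtype (log2 fold change -0.37). Each of these 4 genes was lower in both knockout libraries than in both wildtype libraries.

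Translation factors and aminoacyl-tRNA synthetases were lower in 31 of 90 tested genes (34.4%, against 6.79% of all genes) and higher in 3 (3.33%, against 3.18%). Their median log2 fold change was -0.23. Genes with symbols starting in EIF, which are initiation factors, supplied 25 lower genes of 52 tested. EIF3I, a subunit of initiation factor 3, had 15.2 and 14.3 CPM in knockout, against 28.8 and 28.9 CPM in wildtype (log2 fold change -0.97, SE 0.062, edgeR adjusted p 0.000254). The elongation factor EEF2 had 774 and 743 CPM in knockout, against 1077 and 1068 CPM in wildtype. EIF4E2, a cap-binding protein known to repress translation, rose: it had 124 and 139 CPM in knockout, against 98.1 and 97.8 CPM in wildtype (log2 fold change 0.42). EEF2K, the kinase that inhibits EEF2, was listed at 0 in both wildtype libraries, which can be a failed estimate. It had counts of 187 and 153 in the KMT1 knockout and 150 and 109 in the day 2 KMT5A knockout. In day 3 wildtype it had 2.05 and 1.96 CPM.

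Splicing factors were lower in 46 of 103 tested genes (44.7%, against 6.79% of all genes) and higher in 1 (0.971%, against 3.18%). Their median log2 fold change was -0.30. Their summed level was 18482 and 17839 CPM in knockout, against 23001 and 21953 CPM in wildtype. HNRNPA3, which packages nascent RNA, had 63.0 and 57.1 CPM in knockout, against 105 and 121 CPM in wildtype in the model with the largest decrease (log2 fold change -0.91, SE 0.124, edgeR adjusted p 0.00355). All 4 gene models of this name were lower. SRSF genes, which code for SR proteins, were lower in 7 of 14 tested, SF genes in 7 of 11 and PRPF genes in 6 of 11. The gene that rose was CLK2, a kinase that phosphorylates SR proteins, with 89.2 and 85.5 CPM in knockout, against 69.4 and 74.9 CPM in wildtype. With only library totals for scaling, 12 biogenesis, 8 splicing and 7 translation genes remained lower, and leaving out any 1 of the 4 libraries left 32 to 40, 21 to 27 and 16 to 17.

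Mitochondrial ribosomal proteins were lower in 20 of 74 tested genes (27.0%, against 6.79% of all genes) and higher in 0 (against 3.18%). Their median log2 fold change was -0.26. MRPL4 had 8.31 and 8.75 CPM in knockout, against 14.2 and 15.0 CPM in wildtype (log2 fold change -0.77). Nuclear genes of the respiratory chain were lower in 14 of 82 and higher in 0 (median log2 fold change -0.17), among them ATP5F1A, the alpha subunit of ATP synthase, with 54.7 and 52.9 CPM in knockout, against 85.7 and 80.4 CPM in wildtype. The 29 models of the mitochondrial genome held 0 called genes in either direction, where 9.97% of all genes were called. Their median log2 fold change was -0.002. At an unadjusted p under 0.05 edgeR gave 0 as well, and DESeq2 called 0. Their summed level was 1978 and 2087 CPM in knockout, against 2175 and 2132 CPM in wildtype. The proteasome, which degrades ubiquitin-tagged proteins, had 12 lower and 0 higher genes of 45 (median log2 fold change -0.21). These 3 nuclear lists were sensitive to scaling: with library totals alone 2, 2 and 0 of their genes were lower, and 8 to 11, 4 to 8 and 1 to 3 were lower when 1 library was left out.

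Where 6.79% of all genes were lower and 3.18% higher, chaperones were lower in 17 of 59 tested genes (28.8%) and higher in 3 (5.08%). Subunits of the CCT ring, which folds actin and tubulin, were among the lower ones. CCT5 had 79.9 and 85.1 CPM in knockout, against 136 and 128 CPM in wildtype (log2 fold change -0.68). HSPA8, the constitutive Hsp70, was found in 2 gene models that moved in opposite directions. The model on chromosome 32 had 1827 and 1766 CPM in knockout, against 2524 and 2447 CPM in wildtype (log2 fold change -0.47, edgeR adjusted p 0.0012). The model on chromosome 74 had 62.7 and 64.4 CPM in knockout, against 40.4 and 42.2 CPM in wildtype (log2 fold change 0.62, edgeR adjusted p 0.0214). PDIA3 and HSPA9, chaperones of the endoplasmic reticulum and of mitochondria, were the other 2 that rose. Leaving out 1 library left 8 to 10 lower chaperones, and library totals alone left 4.

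**Figure D3:**
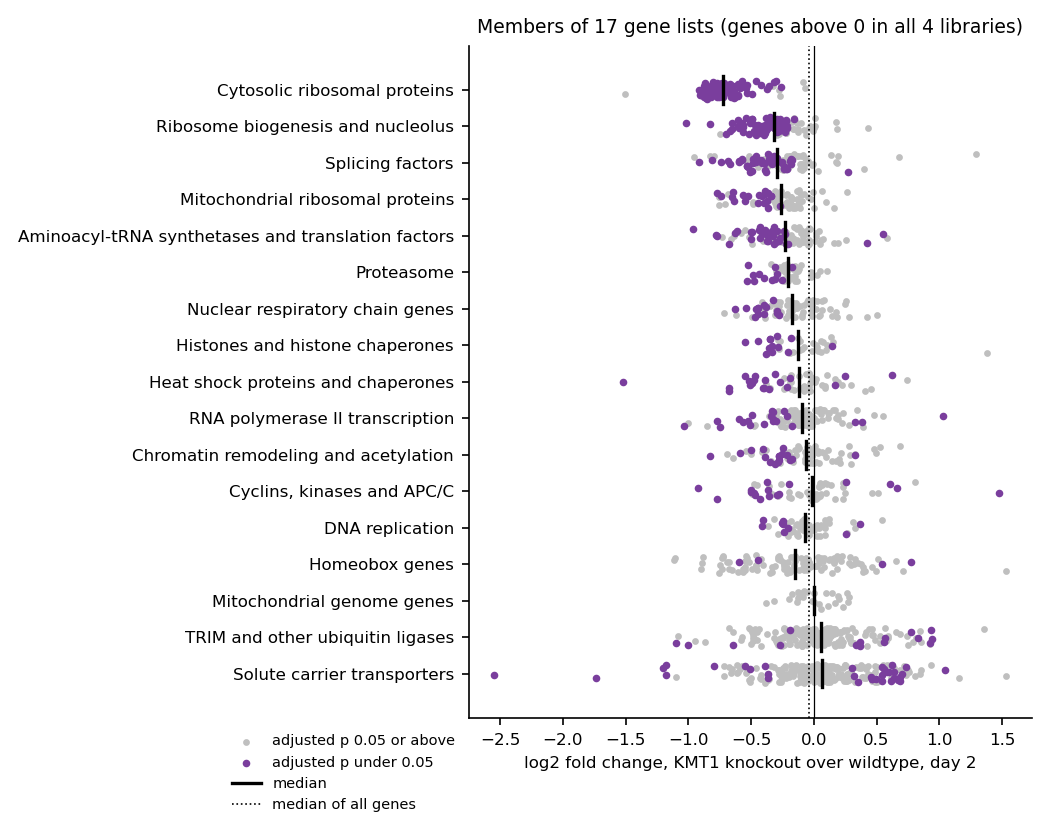
Log2 fold change of the day 2 KMT1 knockout over wildtype for members of 17 gene lists above 0 in all 4 libraries, 1 point per gene, with the median of each list (black bar) and of all genes (dotted line). Ribosomal proteins stand lowest, at a median of -0.73, while solute carriers and ubiquitin ligases hold more genes above 0 than below.

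Chromatin genes fell in smaller numbers. Among all genes tested 3.18% were higher and 6.79% lower. Of the 5 H3K9 methyltransferase genes tested, 0 passed in either direction, and the 4 above 0 in all libraries had log2 fold changes of 0.04 to 0.31. In this group 1 gene had an unadjusted edgeR p under 0.05, and DESeq2 called 2. HP1 proteins and their partners were lower in 5 of 18, including CBX1 and 2 models of CBX5, the HP1 proteins beta and alpha. CBX1 had 658 and 649 CPM in knockout, against 802 and 797 CPM in wildtype (log2 fold change -0.29, edgeR adjusted p 0.00705). KDM4C, a demethylase of H3K9, had 224 and 203 CPM in knockout, against 328 and 342 CPM in wildtype (log2 fold change -0.65, SE 0.048, edgeR adjusted p 0.000342). Both genes were lower in each knockout library than in each wildtype library.

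Histone chaperones were lower in 7 of 19 and higher in 1, and histones lower in 5 of 18. The lower histone genes include both models of H3-3B, the replacement histone H3.3, and MACROH2A1, with 358 and 354 CPM in knockout, against 515 and 527 CPM in wildtype. Remodelers were lower in 7 of 38 and histone acetyltransferases and bromodomain genes in 6 of 21, with 0 higher. INO80, the ATPase of a nucleosome remodeler, had 20.3 and 18.0 CPM in knockout, against 33.0 and 34.9 CPM in wildtype (log2 fold change -0.82). Polycomb genes went both ways, with 2 higher (7.69%) and 4 lower (15.4%) of 26, where all genes had 3.18% and 6.79%. SUZ12, a core subunit of Polycomb complex 2, had 59.8 and 56.8 CPM in knockout, against 87.9 and 89.3 CPM in wildtype (log2 fold change -0.60). MTF2, an accessory subunit of the same complex, had 76.7 and 79.3 CPM in knockout, against 48.3 and 50.4 CPM in wildtype (log2 fold change 0.66). RNA polymerase II, general factors and Mediator were lower in 18 of 108 and higher in 3, SUPT5H among the 3. Most of these calls no longer passed when 1 library was left out or with library totals alone. In the list of H3K9 enzymes, HP1 proteins and partners, 6 genes were lower in the fit of all 12 libraries, 1 to 3 without 1 library and 1 with library totals alone. The 12 lower histones and histone chaperones became 4 to 6 without 1 library and 1 with library totals alone. The 16 lower genes of remodeling, acetylation and deacetylation became 3 to 4 and 1, and the 18 of RNA polymerase II transcription 6 to 9 and 2. The calls of MTF2 and of the CBX5 model PM15842 were lost with each of the 4 libraries left out, and that of KDM4C with none.

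Cell cycle regulators were lower in 13 of 65 tested genes and higher in 4, where 6.79% of all genes were lower and 3.18% higher. Most calls in the list were thus lower. Cyclins of S phase were among the higher ones. CCNE1, cyclin E, had 324 and 319 CPM in knockout, against 214 and 207 CPM in wildtype (log2 fold change 0.61, SE 0.045, edgeR adjusted p 0.000342). A model named CCNA2, cyclin A, had 797 and 789 CPM in knockout, against 279 and 292 CPM in wildtype (log2 fold change 1.47, SE 0.364, edgeR adjusted p 0.0431). CDC25B, a phosphatase that starts mitosis, had 15.9 and 15.8 CPM in knockout, against 31.7 and 28.4 CPM in wildtype (log2 fold change -0.92). Without 1 library 5 to 7 genes of the list were lower and 2 to 3 higher, and with library totals alone 1 and 1. The CCNA2 call was lost with each of the 4 libraries left out, and the CCNE1 and CDC25B calls with none.

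DNA replication genes were lower in 7 of 60 and higher in 2. RRM2, a subunit of the enzyme that makes deoxyribonucleotides, had 193 and 200 CPM in knockout, against 153 and 151 CPM in wildtype (log2 fold change 0.37). PCNA, the sliding clamp of the replication fork, had 167 and 165 CPM in knockout, against 225 and 215 CPM in wildtype (log2 fold change -0.41). Kinetochore, cohesin and condensin genes split into 6 higher and 5 lower of 65. MAU2, which loads cohesin, had 56.8 and 53.8 CPM in knockout, against 37.0 and 39.0 CPM in wildtype. Centrosome genes split into 6 higher and 4 lower of 71, with TUBGCP2 and TUBGCP4, subunits of the gamma-tubulin ring, among the higher. DNA break repair and checkpoint genes had 2 higher (2.13%) and 3 lower (3.19%) of 94, where all genes had 3.18% and 6.79%. HUS1, part of the checkpoint clamp, had 21.6 and 22.1 CPM in knockout, against 11.2 and 11.6 CPM in wildtype (log2 fold change 0.94). The 7 lower replication genes became 1 to 2 without 1 library and 0 with library totals alone. Without 1 library 1 to 3 kinetochore, cohesin and condensin genes were higher and 0 to 3 lower, and 1 to 3 centrosome genes were higher and 1 lower.

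The gene with the largest increase among those above 0 in all libraries and carrying a symbol was PTGS2, the cyclooxygenase that starts prostaglandin synthesis. It had 186 and 142 CPM in knockout, against 11.8 and 8.79 CPM in wildtype, 15.9-fold higher (log2 fold change 3.99, SE 0.229, edgeR adjusted p 0.000219). Of 35 genes tested in prostaglandin and eicosanoid metabolism it was the only one that rose (2.86%, where 3.18% of all genes did). PTGES3, a prostaglandin E synthase that also serves Hsp90 as a co-chaperone, fell (log2 fold change -0.31). This call was lost with each of the 4 libraries left out and with library totals alone. LONRF1, a ubiquitin ligase with a LON domain, had 50.4 and 49.1 CPM in knockout, against 8.58 and 10.8 CPM in wildtype, 5.14-fold higher (log2 fold change 2.36, edgeR adjusted p 0.000986). CHAC1 and ATG4D were also among the 12 largest increases. CHAC1, which breaks down glutathione and is a known target of the amino acid stress response, had 51.3 and 49.9 CPM in knockout, against 18.2 and 17.7 CPM in wildtype (2.82-fold higher). ATG4D, a protease of autophagy, had 13.5 and 9.92 CPM in knockout, against 4.47 and 4.62 CPM in wildtype (2.58-fold higher). The groups do not overlap in these 4 genes, as the ranking required. The day 2 KMT5A knockout had 182 and 172 CPM of PTGS2, 69.1 and 62.5 CPM of LONRF1 and 7.78 and 7.51 CPM of ATG4D. PTGS2, LONRF1 and ATG4D did not pass in the direct comparison of the knockouts.

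The others of these 12, beside CCNA2, were HSCB, RITA1, NIPA2, PXN, B3GNT3, AMDHD2 and a model with a G protein-coupled receptor domain, with log2 fold changes of 1.35 to 1.99. HSCB, a chaperone of iron-sulfur cluster assembly, had 24.4 and 16.98 CPM in knockout, against 4.68 and 5.73 CPM in wildtype. PXN, the adhesion protein paxillin, had 6.67 and 5.79 CPM in knockout, against 2.05 and 2.02 CPM in wildtype. PTGS2, LONRF1 and ATG4D stayed called under all 12 alternatives. CHAC1 was lost with 2 of the 4 left-out libraries, and HSCB, RITA1, NIPA2, PXN, B3GNT3, AMDHD2 and the receptor model with 3 or 4. LONRF1, RITA1, NIPA2, AMDHD2 and the receptor model overlap a gene model on the other strand. The strand setting of the counting is not given in the sources used here. The name RITA1 rests on a match at 28.1% identity and LONRF1 on a match at 40.9%.

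**Figure D4:**
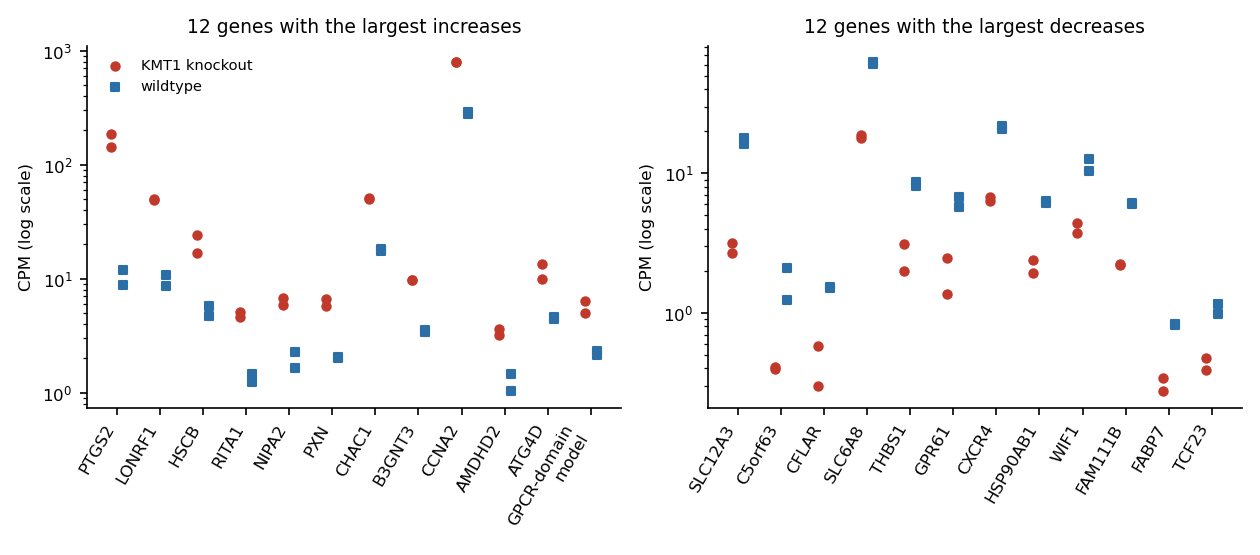
CPM in each day 2 library (log scale) for the 12 genes with the largest increases (left) and the 12 with the largest decreases (right) among called genes above 0 in all 4 libraries; red circles are KMT1 knockout and blue squares wildtype, 2 libraries each. The ranking took only genes whose groups do not overlap; PTGS2 shows the widest gap, with 186 and 142 CPM in KMT1 knockout, against 11.8 and 8.79 CPM in wildtype.

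The largest decrease was that of SLC12A3. SLC12A3, a sodium chloride cotransporter, had 3.15 and 2.67 CPM in knockout, against 16.2 and 17.8 CPM in wildtype (log2 fold change -2.55, SE 0.136, edgeR adjusted p 0.000183). SLC6A8, the creatine transporter on chromosome 14, had 19.0 and 18.0 CPM in knockout, against 60.6 and 62.8 CPM in wildtype (log2 fold change -1.74, SE 0.061, edgeR adjusted p 7.09e-05). CXCR4, a chemokine receptor that guides migrating cells, had 6.37 and 6.72 CPM in knockout, against 20.7 and 21.7 CPM in wildtype (log2 fold change -1.70). THBS1, the matrix protein thrombospondin 1, had 3.13 and 2.00 CPM in knockout, against 8.15 and 8.66 CPM in wildtype (log2 fold change -1.71). WIF1, a secreted inhibitor of Wnt ligands, had 4.42 and 3.76 CPM in knockout, against 10.4 and 12.6 CPM in wildtype (log2 fold change -1.49).

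GPR61, an orphan receptor, FAM111B, a serine protease, and a model of HSP90AB1 on an unplaced scaffold also fell by 1.45 to 1.70 on the log2 scale. These 8 genes stayed called under all 12 alternatives. In the day 2 KMT5A knockout SLC12A3 had 3.56 and 3.15 CPM, CXCR4 5.13 and 6.87 CPM, THBS1 2.51 and 2.35 CPM and FAM111B 2.19 and 3.35 CPM. The HSP90AB1 model had 5.47 and 4.98 CPM there, against 1.94 and 2.40 CPM in the KMT1 knockout and 6.11 and 6.39 CPM in wildtype. C5orf63, CFLAR, FABP7 and TCF23 completed the 12, and each lost its call with 1 or more libraries left out. CFLAR rests on a match to the chicken protein at 26.8% identity, FAM111B on a match at 30.0% and CXCR4 on a match at 38.4%. THBS1, TCF23 and C5orf63 overlap models on the other strand. SLC12A3, SLC6A8, CXCR4, HSP90AB1 and THBS1 share their symbols with other gene models (4, 4, 3, 3 and 2 in all). Reads could be split between copies if these are alike.

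Among the called genes with the highest CPM, decreases were modest. TGIF1, a homeobox repressor of TGF-beta and retinoic acid signaling, had 5844 and 5767 CPM in knockout, against 8807 and 8760 CPM in wildtype (log2 fold change -0.60, SE 0.069, edgeR adjusted p 0.00167). STMN3, a regulator of microtubules, had 1705 and 1694 CPM in knockout, against 2094 and 2036 CPM in wildtype (log2 fold change -0.28). H2AX, the histone marked at DNA breaks, had 1625 and 1619 CPM in knockout, against 2032 and 2096 CPM in wildtype (log2 fold change -0.35). PRMT1, the main arginine methyltransferase, had 1412 and 1467 CPM in knockout, against 1747 and 1703 CPM in wildtype (log2 fold change -0.26). All of these genes were lower in both knockout libraries than in both wildtype libraries, but only TGIF1 stayed called without each library in turn; STMN3, H2AX and PRMT1 were lost with each of the 4.

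Solute carriers went against the balance of calls in the fit of all 12 libraries. Of 258 tested, 25 were higher and 11 lower, that is 9.69% higher where 3.18% of all genes were, and the median log2 fold change was 0.06. SLC38A2, an amino acid transporter, had 268 and 260 CPM in knockout, against 161 and 167 CPM in wildtype (log2 fold change 0.69, SE 0.04, edgeR adjusted p 0.000219). SLC20A2, a phosphate transporter, had 481 and 439 CPM in knockout, against 270 and 284 CPM in wildtype (log2 fold change 0.73). SLC2A1, the glucose transporter GLUT1, had 58.6 and 59.1 CPM in knockout, against 36.9 and 40.7 CPM in wildtype (log2 fold change 0.60). Models of the same name differed: the SLC6A8 model on chromosome 42 rose, with 9.22 and 9.87 CPM in knockout, against 6.002 and 6.38 CPM in wildtype, while that on chromosome 14 fell. SLC5A8, a carrier of short-chain acids, rose on chromosome 65 (log2 fold change 1.05) and fell on chromosome 21 (log2 fold change -1.18). Without 1 library 10 to 13 solute carriers were higher, and with library totals alone 5. With the 4 libraries fitted alone, 49 were higher and 12 lower, but there 55.7% of all calls were higher as well. In the day 2 KMT5A knockout 20 solute carriers were higher and 10 lower.

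Ubiquitin ligases had 10 higher (4.93%) and 5 lower (2.46%) genes of 203, where all genes had 3.18% and 6.79%. Under the alternatives 3 to 26 were higher and 2 to 10 lower. FBXO11, a substrate adaptor, had 23.1 and 21.9 CPM in knockout, against 11.8 and 11.6 CPM in wildtype (log2 fold change 0.94). FBXL17, another adaptor, had 32.1 and 31.5 CPM in knockout, against 62.5 and 65.0 CPM in wildtype (log2 fold change -1.004). The amino acid, one-carbon and sterol genes had 4 higher and 2 lower of 67. GOT1, which makes aspartate, had 67.9 and 68.4 CPM in knockout, against 38.6 and 42.9 CPM in wildtype (log2 fold change 0.74).

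Genes that degrade or repress maternal messages were called in both directions, 9 higher (11.5%) and 12 lower (15.4%) of 78. All genes tested had 3.18% higher and 6.79% lower. PARN, a deadenylase, had 124 and 131 CPM in knockout, against 63.0 and 61.1 CPM in wildtype (log2 fold change 1.04, SE 0.051, edgeR adjusted p 0.000183). CNOT6L, a catalytic subunit of the CCR4-NOT deadenylase, had 725 and 743 CPM in knockout, against 532 and 554 CPM in wildtype (log2 fold change 0.43). CNOT1, the scaffold of that complex, had 110 and 115 CPM in knockout, against 165 and 159 CPM in wildtype (log2 fold change -0.53). PUM2, which binds and represses messages, had 772 and 772 CPM in knockout, against 1042 and 1038 CPM in wildtype (log2 fold change -0.43). The yolk, oocyte and maternal protein list had 0 called genes of 26 in either direction, and the germline, piRNA and meiosis list 0 of 55. Of all genes tested 9.97% were called. At an unadjusted edgeR p under 0.05 there were 8 genes in each of these lists. DESeq2 called 0 in both lists, and edgeR on the 4 libraries alone called 2 in each. Of the genes of maternal message decay, 5 to 6 were higher and 4 to 8 lower without 1 library, and 4 and 0 with library totals alone.

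Patterning genes were called in both directions. All genes tested gave 3.18% higher and 6.79% lower. Homeobox genes had 4 higher and 2 lower of 136, and forkhead, SOX, POU, T-box and GATA factors 1 higher and 9 lower of 92. GATA2, a factor of ventral ectoderm and blood in other vertebrates, had 4.09 and 4.43 CPM in knockout, against 6.75 and 7.04 CPM in wildtype (log2 fold change -0.69). In the Wnt pathway 2 genes were higher and 5 lower of 82. TCF7L2, a nuclear factor of the pathway, had 4.47 and 4.87 CPM in knockout, against 10.2 and 11.01 CPM in wildtype (log2 fold change -1.19). FZD3, a receptor, had 74.0 and 74.3 CPM in knockout, against 51.7 and 49.9 CPM in wildtype (log2 fold change 0.55).

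In the Nodal, BMP and TGF-beta pathway 5 genes were higher (6.76%) and 6 lower (8.11%) of 74, where all genes had 3.18% and 6.79%. The receptor ACVR1 had 16.4 and 13.9 CPM in knockout, against 26.5 and 27.8 CPM in wildtype (log2 fold change -0.84), and ID2, a BMP target, had 19.5 and 20.4 CPM in knockout, against 41.9 and 41.8 CPM in wildtype (log2 fold change -1.07). SMAD4, the shared transducer, had 201 and 219 CPM in knockout, against 139 and 143 CPM in wildtype (log2 fold change 0.58). The FGF, ephrin and ERK list had 2 higher and 3 lower of 87, and Notch and Hedgehog genes 2 higher and 2 lower of 54. LFNG, which modifies Notch, had 65.9 and 69.0 CPM in knockout, against 43.1 and 41.9 CPM in wildtype. Immediate-early and stress factors had 4 higher and 4 lower of 50, and p53 with its targets 2 higher and 4 lower of 25. Zinc finger genes of the ZNF and ZBTB families had 2 higher and 15 lower of 146, and transposon-derived symbols 0 higher and 4 lower of 31. With library totals alone, 0 of the forkhead, SOX, POU, T-box and GATA factors were called lower and 2 of the zinc finger genes, and without 1 library 1 to 4 and 5 to 7. In the Nodal, BMP and TGF-beta pathway 2 to 4 genes were higher and 3 to 5 lower without 1 library. The GATA2, FZD3 and LFNG calls were lost with each of the 4 libraries left out.

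Calls were not evenly spread over gene length and level. Genes above 0 in all 4 libraries were put into 4 groups of about equal size. Of the 3499 genes with the longest summed exons (6739 to 37216 bases), 6.2% were higher and 7.32% lower. Of the 3499 with the shortest (66 to 1597 bases), 0.514% were higher and 4.86% lower. The ribosomal protein models above 0 had a median exon length of 1712 bases, which falls in the group of 1599 to 3811 bases, where 9.31% of 3500 genes were lower. By level, 17.3% of the 3499 genes above 51.96 mean CPM were lower, and 1.14% of the 3499 genes at or under 2.877 mean CPM. The part of length and level in the differences between lists was not tested.

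**Figure D5:**
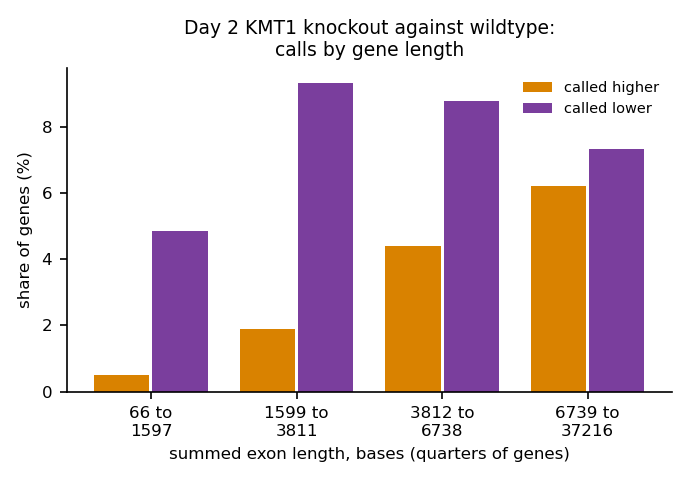
Share of genes above 0 in all 4 libraries called higher (orange) or lower (purple) in the day 2 KMT1 knockout, in 4 groups of about equal size by summed exon length in bases. The share called higher is 0.514% in the shortest group and 6.2% in the longest, while the share called lower is between 4.86% and 9.31%.

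Of the 85 chromosomes with at least 20 tested genes, chromosomes 73 and 71 had the highest shares of lower calls. On chromosome 71, 14 of 111 tested genes were lower (12.6%, against 6.79% of all genes) and 0 higher (against 3.18%), with a median log2 fold change of -0.29. On chromosome 73, 11 of 73 were lower (15.1%) and 0 higher, with a median of -0.16. Chromosome 82 had a median of -0.22, between these values, with 3 of 44 lower (6.82%) and 0 higher. Most of the called models there carry no name. The only called gene with a full symbol on chromosome 71 was SAR1B, a GTPase of vesicle budding, with 97.2 and 99.2 CPM in knockout, against 119 and 116 CPM in wildtype. Another pair of models there is named by a domain, DUF5641 and GTF2IRD2B. On chromosome 73 they included RPF2, a ribosome assembly factor (log2 fold change -0.85), and CCT8, a subunit of the CCT ring (log2 fold change -0.36). Medians in the day 2 KMT5A knockout, against the same wildtype libraries, were -0.27 for chromosome 71 and -0.15 for chromosome 73. There 21 and 10 genes of these chromosomes were lower, and 1004 of all 15615. From day 2 to day 3 in wildtype, 84 tested genes of chromosome 71 were higher and 5 lower, with a median of 1.35. For chromosome 73 these values were 28, 18 and 0.29, and the median of all genes was -0.43. The part of developmental stage in these chromosome values was not tested.

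The direct comparison of the day 2 KMT1 knockout with the day 2 KMT5A knockout, which shares no library between its groups, gave 23 calls (0.147% of genes), 21 higher (0.134%) and 2 lower (0.0128%) in the KMT1 knockout. Without KMT1 knockout replicate 1 the balance turned, with 17 higher and 24 lower, whereas without any other day 2 knockout library 24 to 65 were higher and 1 to 3 lower. Without adjustment, 423 genes had p under 0.05. Of the 23, 14 were listed at 0 in at least 1 of the 6 libraries of day 2 and 9 were above 0 in all 6 libraries. RPL8, a ribosomal protein on chromosome 21, had 125 and 120 CPM in the KMT1 knockout and 68.7 and 69.8 CPM in the KMT5A knockout, against 216 and 216 CPM in wildtype (log2 difference of the knockouts 0.82, edgeR adjusted p 0.000288). RPS16, also on chromosome 21, had 60.1 and 52.1 CPM in the KMT1 knockout and 33.4 and 31.5 CPM in the KMT5A knockout, against 94.0 and 96.7 CPM in wildtype. SLC6A8 on chromosome 14 had 19.0 and 18.0 CPM in the KMT1 knockout and 30.1 and 32.2 CPM in the KMT5A knockout, against 60.6 and 62.8 CPM in wildtype (log2 difference -0.75, edgeR adjusted p 0.00428). The other lower call was the HSP90AB1 model on an unplaced scaffold (log2 difference -1.27, edgeR adjusted p 0.0451). It had 1.94 and 2.40 CPM in the KMT1 knockout and 5.47 and 4.98 CPM in the KMT5A knockout, against 6.11 and 6.39 CPM in wildtype. Ribosomal protein levels of both knockouts lay below wildtype in RPL8 and RPS16, and the KMT5A knockout lay lowest.

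RPL8, RPS16 and SLC6A8 lie on the chromosomes of the presumed targets, whereas the HSP90AB1 model is on an unplaced scaffold. SUV39H2 is on chromosome 14 (start 8620044, end 8633357, plus strand, 6 exons) and the gene KMT5A on chromosome 21, in the coordinates of the deposited annotation, whose assembly is not named. Of the 23 calls, 8 were on chromosome 21, which held 251 of the tested genes, and 1 on chromosome 14, which held 170. Over 85 chromosomes with at least 20 genes above 0 in all 6 day 2 libraries, the median log2 difference of the KMT1 minus the KMT5A knockout was lowest for chromosome 14, at -0.05 (154 genes, 99 lower and 55 higher in the KMT1 knockout). It was highest for chromosome 21, at 0.10 (212 genes, 168 higher and 44 lower in the KMT1 knockout). The next values were -0.03 and 0.04, and the median of all 13698 genes was 0.01. Each of the 4 pairs of single libraries gave a value of the same sign, from -0.08 to -0.03 for chromosome 14 and from 0.08 to 0.13 for chromosome 21.

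On chromosome 14, genes that start after SUV39H2 had a median of -0.06 (86 genes) and those that start before it a median of -0.01 (67 genes). Against wildtype, the KMT1 knockout had a median of -0.10 after SUV39H2 and 0.03 before it. The KMT5A knockout, against the same wildtype libraries, had a median of -0.055 after SUV39H2 and 0.074 before it. Both knockouts thus had a lower median after SUV39H2 than before it. In the KMT1 knockout, 13 of the 86 genes after SUV39H2 were lower and 6 higher. Of the 67 genes before it, 6 were lower and 8 higher. Among all 13698 genes, 1058 were lower and 455 higher. Higher calls thus held a larger share than among all genes on both sides, and the lower share before SUV39H2 was near that of all genes. On chromosome 21 the median difference of the KMT1 minus the KMT5A knockout was larger before the target than after it, at 0.05 for genes that start after the gene KMT5A (31 genes) and 0.12 for those before it (180 genes). SLC6A8, WIF1 and GPR61, 3 of the 12 genes with the largest decreases, all start after SUV39H2 (positions 10306898, 12936831 and 13853217). These splits were chosen after the values had been seen, and neighbouring genes are not independent, so they carry no test.

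By the test of the difference between days, 1595 genes (10.2%) responded differently to the knockout at day 3 than at day 2. The effect was more positive at day 3 for 1140 of them (7.3%) and more negative for 455 (2.91%). PTGS2 had 16.995 and 11.8 CPM in the day 3 KMT1 knockout, against 12.996 and 12.6 CPM in day 3 wildtype, so both knockout libraries did not lie above both wildtype libraries as they did at day 2. SLC12A3 had 3517 and 3354 CPM in the day 3 KMT1 knockout, against 3910 and 3768 CPM in day 3 wildtype, so its day 2 values belong to a gene before a large rise. From day 2 to day 3 in wildtype, 4536 of all 15615 genes tested were called higher and 5785 lower. In the same comparison 82 of 87 ribosomal protein, 87 of 97 biogenesis and 80 of 103 splicing genes were called higher. Their median log2 changes were 3.04, 1.57 and 1.17, against -0.43 over all genes. Solute carriers had a median of -0.80, and DNA replication genes, with more decreases than increases in the knockout, -0.60. The part of developmental stage in the day 2 differences was not tested. The summed ribosomal protein level was 67915 ± 664 CPM in the day 3 KMT1 knockout, against 74541 ± 999 CPM in day 3 wildtype (SD, n = 2 each). At day 3, 1 ribosomal protein gene of 87 was higher (4.67% of all genes) and 4 lower (1.59% of all genes), and for 70 of 87 the effect was more positive at day 3 than at day 2 by the test of the difference. SUV39H2 had 32.7 and 36.8 CPM in the day 3 KMT1 knockout, against 51.6 and 56.1 CPM in day 3 wildtype (log2 fold change -0.63, edgeR adjusted p 0.00624). In this day 3 comparison chromosome 14, which carries SUV39H2, had 32 lower and 9 higher genes of 170 tested. Its median log2 fold change was -0.12, so the decrease of SUV39H2 was not the only one on its chromosome.

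A further 43 calls involved genes listed at 0, of which 41 were at 0 in both wildtype libraries and 2, SPARC and a model with an aspartate dehydrogenase domain, at 0 in both knockout libraries. CREB1 on chromosome 4, 1 of 5 models of that name, had counts of 4546 and 1399 in knockout and was listed at 0 in both wildtype libraries. DCAF4 had counts of 370 and 781 in knockout and was likewise listed at 0 in both wildtype libraries. Such lists of 0 also occurred within groups: 299 genes were at 0 in 1 knockout library and at 50 or more in the other, and 367 genes in the wildtype libraries. Of the 41 genes, 36 were above 0 in both day 2 KMT5A knockout libraries and 5 were at 0 there. ZFP36L1 on chromosome 29, 1 of the 5, had counts of 1300 and 1139 in the KMT1 knockout. No fold change is given for these genes.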

How the data were processed

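RNA of pools of whole embryos went through the mRNA pipeline of a commercial sequencing provider, per the labels' protocols. The authors deposited 1 table of whole numbers for each gene and library, made from their reads and not normalized, called raw counts in the labels. These deposited values are treated as estimated counts that the authors made from their reads, since many genes are at 0 beside high counts while values of 1 to 3 are rare (8 to 29 genes per library). HISAT2 2.2.1, StringTie 2.2.3 and DESeq2 1.42.1 are named in the submitters' processing notes, without their roles; genome build, strand setting and the handling of reads with several mapping positions are not given in the sources used here. Rounding changed 0 values. A deposited annotation gave positions and names of all 22407 genes, 14752 with a symbol.

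Counts were fitted with edgeR 4.0.16 in R 4.3.3: 1 model of all 12 libraries in 6 groups, TMM scaling (factors of 1.179 and 1.183 in day 2 KMT1 knockout, 1.124 and 1.13 in day 2 wildtype), the default low-count filter, quasi-likelihood F tests and Benjamini-Hochberg adjustment over 15615 genes. A gene was called at an adjusted p under 0.05. Standard errors come from the F statistic. CPM use TMM-scaled totals, which ranged from 61886305 to 89061394 before scaling. Data simulated for this comparison had 15230 genes tested, with 100 genes changed 2-fold and 100 changed 4-fold. In them 36.4% of 2-fold and 66% of 4-fold changes were recovered and 3.77% of 106 calls were false. Alternatives used DESeq2 1.42.0, other scalings, filters and libraries.

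Genes are named by rule: the presumed targets; the 12 largest increases and decreases among calls above 0 in all 4 libraries with a symbol, groups that do not overlap and a mean of at least 50 counts; up to 3 of each direction per list; calls at 0; differences between knockouts; and the 6 called genes of highest CPM. RPS3, FBL, EEF2, CBX1, SLC38A2, SLC2A1, CNOT6L, PUM2, further models of a symbol and a few others were added for their roles after their values were seen. The comparison and its 49 gene lists were chosen with earlier results of these data known. Of 2111 list symbols, 692 were not found in the annotation. Some results are not reported here. Medians of lists are over members above 0 in all 4 libraries.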

Additional observations from a re-analysis of the deposited data

Results flagged for a closer look

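These results are listed because the response to the KMT1 knockout was not the same at day 3 as at day 2 by edgeR's test of the difference itself, which all 4 groups of KMT1 knockout and wildtype libraries enter. In all, 1595 genes differed, 10.2% of those tested. Among gene lists, 70 of 87 cytosolic ribosomal proteins, 39 of 97 ribosome biogenesis genes and 28 of 103 splicing factors differed. The same held for 23 of 90 aminoacyl-tRNA synthetases and translation factors, 12 of 74 mitochondrial ribosomal proteins and 35 of 258 solute carriers. For nuclear respiratory chain genes (8 of 82) and the proteasome (4 of 45) the share was not above that of all genes.

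Adjusted p-values of the difference (edgeR) were 0.00436 for SUV39H2, 0.00089 for PTGS2, 0.0147 for LONRF1, 0.0104 for RITA1, 0.0439 for AMDHD2 and 0.0154 for ATG4D, all with a more negative effect at day 3. With a more positive effect at day 3 they were 0.000792 for SLC12A3, 0.000813 for SLC6A8, 0.00394 for THBS1, 0.001 for CXCR4, 0.00554 for HSP90AB1 and 0.00901 for FAM111B. The same direction was seen for RPL8 (0.001), RPS16 (0.00799), TGIF1 (0.00511), NCL (0.00353), the chromosome 32 model of HSPA8 (0.0147), STMN3 (0.000418), H2AX (0.0152) and the unnamed model PM11903 of chromosome 21 (0.00596). STMN3 had 439 and 400 CPM in the day 3 KMT1 knockout, against 233 and 240 CPM in day 3 wildtype, so its direction was opposite to that of day 2.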

How the results depend on the processing

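Of 227 called named genes, each was fitted under 12 alternatives with few exceptions (2716 values): 0 turned their direction, and 718 values no longer passed, 145 of them with library totals alone and 116 or 117 with each left-out library. Among named genes not called, KMT5A (log2 0.005) turned to -0.007 without wildtype replicate 1 and ranged from -0.038 to 0.084 over the left-out libraries. Calls against wildtype (1557) numbered 354 with library totals alone (139 higher, 215 lower), 2544 with DESeq2 (1125 higher), 2522 with the 4 libraries alone (1406 higher) and, in an alternative added after seeing the data, 2658 with the 6 day 2 libraries alone (1462 higher). Without 1 library they ranged from 641 to 779 (184 to 258 higher, 457 to 526 lower), where a lone library is taken to vary like the other groups. Calls between knockouts (23) numbered 14 with library totals alone, 103 with DESeq2, 7 with their 4 libraries alone, 3 over genes above 0, and 25 to 68 without 1 library; without KMT1 knockout replicate 1 they were 17 higher and 24 lower, in place of 21 and 2. Differences between days (1595) numbered 217 with library totals alone (47% more positive, in place of 71.5%), 3225 with DESeq2 and 678 to 1965 without 1 library. The cause was not tested; fewer libraries leave fewer degrees of freedom. The share of higher calls was 31.9% in the main result, 39.6% with DESeq2 size factors, 44.2% with DESeq2 and 55% with the day 2 libraries alone. Same-numbered day 2 KMT1 knockout and wildtype libraries did not deviate together (r = -0.046), so the numbers were not taken as pairs; with the replicate block 1371 genes were called against wildtype, 14 between knockouts and 1441 between days. The 2 libraries per group limit what differences can be seen. In simulation most 2-fold changes were missed, but only 100 genes were changed 2-fold and 100 4-fold there. In the data 1557 genes passed, so the simulated recovery need not hold for this comparison.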

Other observations

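Some gene families not described above moved mainly in 1 direction in the day 2 KMT1 knockout. Genes with symbols starting in DDX, the DEAD-box RNA helicases, were lower in 16 of 33 tested and higher in 0, with a median log2 fold change of -0.30. EXOSC genes, the subunits of the RNA exosome that trims and degrades RNA, were lower in 5 of 12, and all 12 had log2 fold changes below 0, from -0.73 to -0.09. RBM genes, which code for RNA-binding proteins, were lower in 10 of 37 and higher in 0. POLR genes, the subunits of RNA polymerases, were lower in 8 of 31. Among families with increases, ANKRD genes, which code for ankyrin repeat proteins, were higher in 3 of 25 and lower in 0, and RNF genes, which code for RING-finger ubiquitin ligases, were higher in 6 of 56 and lower in 2. Among all genes tested 3.18% were higher and 6.79% lower.

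In the nuclear envelope list 5 genes were higher (5.75%) and 12 lower (13.8%) of 87, where all genes had 3.18% and 6.79%. With library totals alone 2 genes of this list were higher and 0 lower. KPNB1, the main import receptor, had 105 and 104 CPM in knockout, against 151 and 151 CPM in wildtype (log2 fold change -0.53, edgeR adjusted p 0.00318). SYNE1, which links nuclei to actin, had 149 and 155 CPM in knockout, against 95.5 and 102 CPM in wildtype (log2 fold change 0.62, edgeR adjusted p 0.00293). Apart from the nuclear envelope, AQP3, a water and glycerol channel, had 177 and 165 CPM in knockout, against 302 and 291 CPM in wildtype (log2 fold change -0.79, edgeR adjusted p 0.000234).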
